A study of Danio rerio with 6 samples.

Results

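Of the 898 genomic regions called as bound by Smad2 in zebrafish blastulas, 276 (30.7%) shared no base with an Eomesa-bound region and had none within 50 kb on the same sequence. These peaks make up 50.8% of the 543 Smad2 peaks that shared no base with an Eomesa peak, and they are referred to as distant lone peaks. They were picked by taking every Smad2 interval whose nearest edge lay over 50 kb from that of any of the 6378 Eomesa intervals, or whose sequence carried no Eomesa interval. The data come from ChIP-seq, which sequences the DNA held by a protein after precipitation with an antibody, on formaldehyde-fixed wild-type embryos of the AB strain, whole and untreated, at high-sphere stage. There were 2 Smad2 reactions, 2 Eomesa reactions and 2 input samples of whole chromatin, 6 in all. Each factor has 1 list of peaks, made of regions called in both reactions, and Smad2, Eomesa and input have 1 coverage track each. No spread between replicates can therefore be given for any value, and whole embryos do not show which cells of the blastula carry a signal.

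Nodal ligands are secreted signals of the TGF-beta family that instruct cells of the vertebrate blastula to become mesoderm and endoderm. Their receptors phosphorylate Smad2, which then enters the nucleus with Smad4 and reaches DNA largely through partner proteins. Foxh1, a forkhead factor, is the best known of these partners, and Eomesa, a T-box factor supplied by the mother in zebrafish, is another. Peaks away from any called Eomesa region are thus a place to look at Smad2 signal where this partner was not called.

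The DNA letters at these regions that could be shown are the potential Foxh1 sites that the study lists for its Smad2 peaks, at most 1 of 11 letters for each peak, without strand or position within the peak. A site was listed for 76 of the 276 distant lone peaks (27.5%, 95% Wilson interval 22.6 to 33.1), where the share over all Smad2 peaks was 41.8%. The last 8 letters, in capitals below, form the core. Cores that read AATNCACA, the motif searched here in the listed letters, occurred at 34 distant lone peaks (12.3%, 8.95 to 16.7), against 20.8% of all Smad2 peaks. The first set shows the 9 distant lone peaks of at least 30 tags with this motif, in order of Smad2 height. All 9 read AATACACA and differ in the letters before it.
Smad2_peak595: agcAATACACA
Smad2_peak479: aacAATACACA
Smad2_peak329: gtcAATACACA
Smad2_peak298: tgtAATACACA
Smad2_peak440: ttcAATACACA
Smad2_peak643: tccAATACACA
Smad2_peak852: cacAATACACA
Smad2_peak369: gacAATACACA
Smad2_peak668: cagAATACACA
The next set holds the 3 peaks whose core has T at the variable letter, which had Smad2 heights of 9 or 10 tags.
Smad2_peak240: gcgAATTCACA
Smad2_peak704: ctgAATTCACA
Smad2_peak657: gcgAATTCACA
The last set holds sites outside the motif that belong to results given further on, at 2 peaks by hspb1 with high Eomesa signal and at 4 peaks among histone genes.
Smad2_peak654: ctgATTCCACT
Smad2_peak655: ctgATTCCACT
Smad2_peak558: gatAATAAACA
Smad2_peak588: gtaAATCCACT
Smad2_peak590: agaAATCCACT
Smad2_peak753: gagAATAAACT

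Distances to Eomesa were long for most of the set. For 268 distant lone peaks an Eomesa peak lay on the same sequence, at a median distance of 129 kb (quartiles 78.0 and 241 kb), and the other 8 lay on unplaced sequences with no Eomesa peak. Including these 8, whose distance could not be measured, 179 distant lone peaks had no Eomesa peak within 100 kb on the same sequence. Of the 268, 7 had their nearest over 500 kb away. The farthest were Smad2_peak285 (chr17:40006482-40006581, in the Zv9 build used throughout) at 902.4 kb, Smad2_peak96 (chr11:38548678-38548861) at 902.2 kb and Smad2_peak394 (chr2:56898686-56898690) at 702 kb. Just beyond the limit were Smad2_peak678 at 50.2 kb, Smad2_peak592 at 50.4 kb and Smad2_peak720 at 50.7 kb. Just within it, and so not counted, were Smad2_peak173 at 49.7 kb, Smad2_peak593 at 49.0 kb and Smad2_peak273 at 48.1 kb. Smad2_peak592 and Smad2_peak593 are neighbours on chromosome 25 with 21 and 26 Smad2 tags, so that the limit runs between adjacent peaks there. The 25 chromosomes held 266 of the distant lone peaks and unplaced sequences held 10. Their share among the Smad2 peaks of a chromosome was highest on chromosome 4, with 10 of 22 (45.5%), and lowest on chromosome 23, with 6 of 38 (15.8%).

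Smad2 signal at distant lone peaks was modest, and input was raised at the same places. Height is the highest value of a track within the peak, in tags, which are sequenced fragments overlapping at a position. The median Smad2 height was 13 tags (95% interval over peaks 12 to 13, quartiles 10 and 16, range 2 to 103), and 233 of the 276 peaks stayed under 20 tags. Over all 898 Smad2 peaks the median was 16 tags (quartiles 12 and 26). At the 267 lone peaks with an Eomesa peak within 50 kb it was 14 tags (11 and 19.5). Input height had a median of 6 tags (quartiles 4 and 9, range 0 to 31) and Eomesa height a median of 2 tags (quartiles 1 and 4, range 0 to 39). Tags of different tracks are not on 1 scale. The tracks held 12.6 M Smad2, 12.3 M Eomesa and 19.0 M input tags by estimate (M, mega), and a tag covered 38.9 bp in the Eomesa track against 132 bp in both others. Each track was therefore divided by its mean over the 1412 Mb spanned, and the mean over each peak was then set against the same for input. On this scale the median distant lone peak had 7.22 times the Smad2 mean (6.80 to 7.54), 2.10 times the input mean (1.97 to 2.20) and 2.02 times the Eomesa mean (1.78 to 2.41).

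Among the distant lone peaks, 23 were narrower than 100 bp (8.33%, 95% Wilson interval 5.62 to 12.2), where the share over all Smad2 peaks was 4.12%, that over the 267 lone peaks with an Eomesa peak within 50 kb 5.24% (3.15 to 8.61, an interval that met that of the distant ones), and that over the 355 shared peaks 0, which allows up to 0.845%. Within their intervals they had Smad2 heights of 2 to 11 tags (median 6), and within 250 bp of their centres heights of 7 to 22 tags (median 10). The Smad2 track was higher outside the interval than inside it, within this distance, at 31 of the 276 distant lone peaks. This share was not computed over all Smad2 peaks. Low heights at narrow peaks therefore describe the deposited interval and not the tallest signal around it.

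The Smad2-to-input ratio had a median of 3.49 (3.26 to 3.71, quartiles 2.66 and 4.83) over the 274 distant lone peaks with any input signal within the interval. It reached 3 at 178 of them (65.0%, 59.1 to 70.4), compared with 71.3% of all Smad2 peaks. At 223 of the 274 (81.4%), the counting interval of the ratio, from the estimated tags in the peak, lay wholly above 1, against 89.3% of all Smad2 peaks. Input itself was at least 2 times its genome-wide mean at 153 of 276 (55.4%, 49.5 to 61.2), against 61% of all Smad2 peaks, and with the highest value in place of the mean over the peak this share was 84.8%. The share of peaks at 3 times input was 55.8% when each track was scaled to its own level 2 to 10 kb from the peak. These shares rest on the tracks on which the peaks were called, so they describe the set and support nothing, and intervals cover sites or counted tags, not embryos.

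Eomesa signal was near the input level at most distant lone peaks and well above it at some. The Eomesa-to-input ratio had a median of 1.01 (0.817 to 1.13, quartiles 0.475 and 2.14). No Eomesa tag was seen at 17 of the 276 peaks and under 4 tags at 186. Under 4 tags were also seen at 149 of the 267 lone peaks with an Eomesa peak within 50 kb, and at 0 of the 355 shared peaks. A ratio of at least 2 was found at 72 of 274 (26.3%, 21.4 to 31.8), against 55.5% of all Smad2 peaks. At lone peaks with an Eomesa peak within 50 kb this share was 27.5% (22.5 to 33.2). The counting interval lay wholly above 1 at 49 (17.9%), against 51.6% of all Smad2 peaks, and wholly below 1 at 13 (4.74%), against 2.35%. As the rule required that no Eomesa peak be called, low values follow from it and nothing is read from these shares. With the highest value in place of the mean over the peak, the median ratio was 1.96 and the share at 2 or more was 48.5%. Whether the input track is the one paired with the Eomesa reactions is not stated, and its tags cover the same length as those of Smad2.

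**Figure D1:**
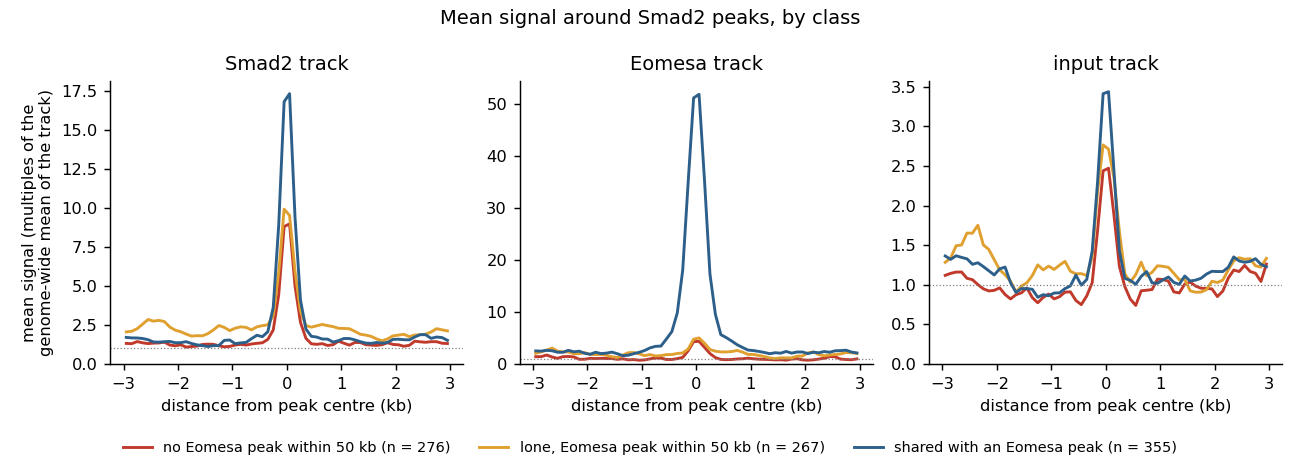
Mean signal of the Smad2, Eomesa and input tracks in 100 bp steps from 3 kb before to 3 kb after the peak centre, as multiples of the genome-wide mean of each track, for distant lone peaks (red, n = 276), lone peaks with an Eomesa peak within 50 kb (yellow, n = 267) and peaks shared with Eomesa (blue, n = 355). At the centre of distant lone peaks the mean was 8.91 times for Smad2, 4.33 times for Eomesa and 2.45 times for input, and all 3 tracks fell to between 1.15 and 1.37 beyond 2.5 kb. Peaks centred under 3 kb from the start of their sequence, among them Smad2_peak887 and Smad2_peak890, count in n but not in the mean.

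Mean signal was highest at the peak centre and low beyond 2.5 kb. The profiles leave out Smad2_peak887 and Smad2_peak890, which are centred under 3 kb from the start of their sequence. Averaged over the other distant lone peaks, the Smad2 track was 8.91 times its mean within 100 bp of the peak centre. Beyond 2.5 kb it was 1.37 times, as the plot of mean profiles shows. The Eomesa track went from 4.33 to 1.20 times and the input track from 2.45 to 1.15 times over the same distance. The Eomesa average includes single peaks of up to 41.0 times, whereas the median distant lone peak had 2.02 times over its interval. The Smad2 maximum of the interval lay within 100 bp of the centre at 255 of the 276 peaks, with a median offset of 32.1 bp. The Smad2 and input maxima of a peak were a median of 45 bp apart. Maxima were sought only inside the interval, of median width 259.5 bp, so its width bounds these distances and nothing is read from them. Across the 276 peaks, Smad2 height went with input height (Spearman's rho 0.589) and with Eomesa height (rho 0.456), and input height with Eomesa height (rho 0.342). These are descriptions over sites, in which each track enters every point and all tracks share the mappable sequence.

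Set beside the other Smad2 peaks, distant lone peaks resembled the 267 lone peaks with an Eomesa peak within 50 kb (nearer lone peaks) more than the 355 shared peaks. Median Smad2 heights were 13, 14 and 26 tags in this order, and median widths 259.5, 289 and 378 bp. The median Smad2-to-input ratio was 3.49 at distant lone peaks, 3.43 (3.14 to 3.61) at nearer lone peaks and 4.67 (4.34 to 4.91) at shared peaks. The median Eomesa-to-input ratio was 1.01, 1.16 (1.01 to 1.32) and 13.4 (12.4 to 15.7). For lone peaks the distance to Eomesa thus went with little difference in either ratio, and their intervals met. Away from the peak, at 2.5 kb or more, nearer lone peaks had a higher Smad2 level, of 2.24 times the mean, than distant ones at 1.37 times. Eomesa and input were higher there too, at 2.28 and 1.37 times against 1.20 and 1.15 times. Distant lone peaks made up 119 of the 225 Smad2 peaks in the lowest quartile of height (52.9%, 46.4 to 59.3), 90 of 224 in the second (40.2%), 50 of 224 in the third (22.3%) and 17 of 225 in the highest (7.56%, 4.77 to 11.8). The classes were made from the calls on these tracks, so no test of a difference between them was made.

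**Figure D2:**
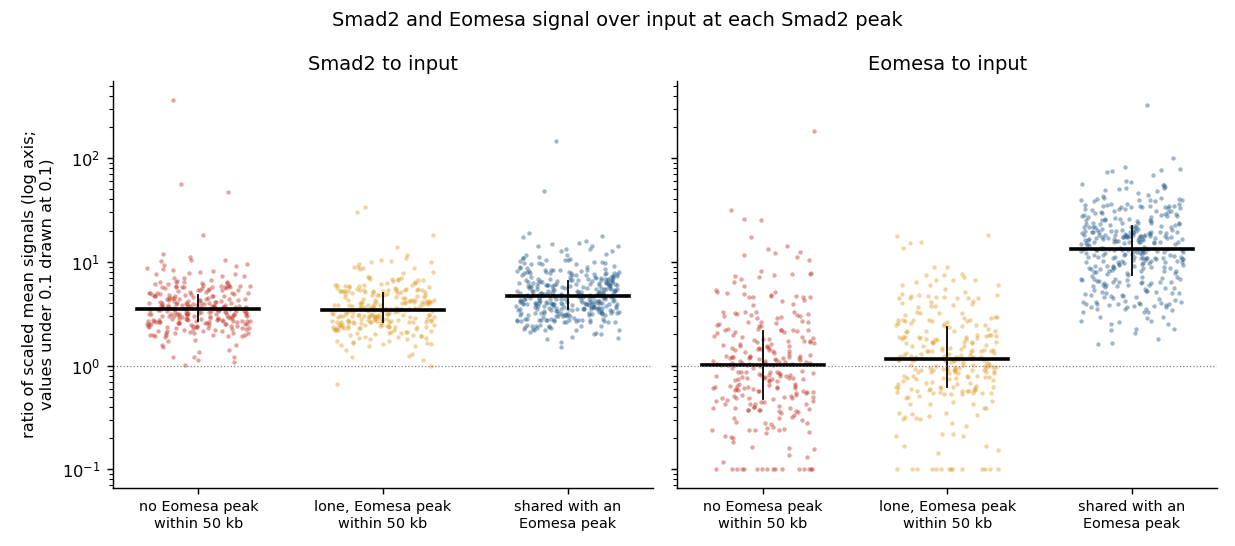
Smad2-to-input ratio (left) and Eomesa-to-input ratio (right) at each Smad2 peak on a log axis, by class, with thick lines at the medians and thin lines from the lower to the upper quartile. The 6 peaks with no input signal within their interval are left out. The quartile ranges of distant and nearer lone peaks overlapped in both panels, although single distant lone peaks with 1 to 3 input tags lay higher than any nearer lone peak, with medians of 3.49 and 3.43 for Smad2 and of 1.01 and 1.16 for Eomesa, while shared peaks lay at 13.4 for Eomesa.

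The tallest distant lone peaks carried signal in all tracks. Smad2_peak595 (chr3:10013521-10013916) had 103 Smad2, 22 input and 39 Eomesa tags. Its Smad2-to-input ratio was 8.23 (counting interval 5.40 to 13.1) and its Eomesa-to-input ratio 7.45 (4.86 to 11.9). The study places it within 10 kb of si:ch211-121i18.1, which RefSeq (GRCz12tu) lists under crebbpb, a gene for a CREB-binding protein, an acetyltransferase that serves many transcription factors as a coactivator. Smad2_peak479 (chr22:41481374-41481715), near KLC4, a kinesin light chain gene, had 72 Smad2, 19 input and 11 Eomesa tags. Smad2_peak329 (chr19:18442132-18442412), near a mir-219 gene and the lysosomal thioesterase gene ppt2, had 67 Smad2, 31 input and 25 Eomesa tags. Smad2_peak298 (chr18:2184295-2184974), near relt, a TNF receptor family gene, had 54 Smad2, 14 input and 16 Eomesa tags and lay 523 kb from the nearest Eomesa peak. Smad2_peak415 (chr20:49272168-49272445), among U5 spliceosomal RNA genes, had 52 Smad2, 27 input and 9 Eomesa tags. All 5 stood above the median input height of 6 tags by more than its quartile range. The first 4 had counting intervals of the Eomesa ratio above 1, whereas at Smad2_peak415 the ratio was 1.08 (0.570 to 1.87). Of these 5, 4 have a site in the first set of sequences, and Smad2_peak415 has none listed.

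**Figure D3:**
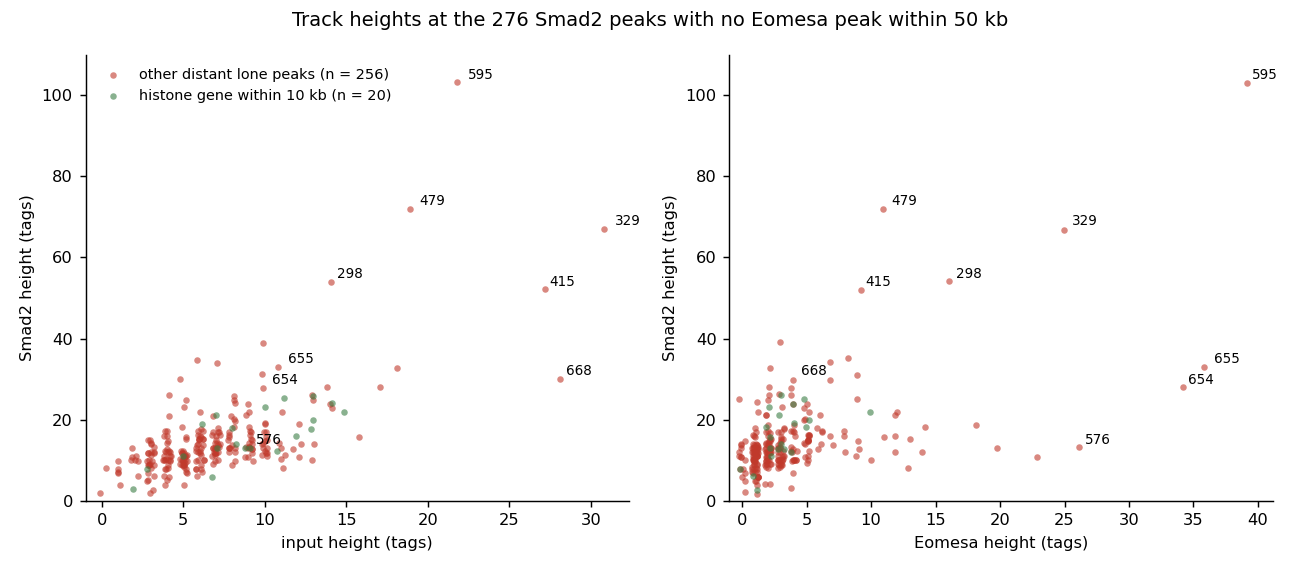
Smad2 height against input height (left) and against Eomesa height (right) at each of the 276 distant lone peaks, in tags, with numbers naming single peaks and points shifted at random by up to 0.25 tags to separate them. Most peaks sat under 20 Smad2 tags and under 4 Eomesa tags, Smad2_peak595 stood alone at 103 Smad2 and 39 Eomesa tags, and the 20 peaks with a histone gene within 10 kb (green) lay within the main cloud.

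The highest ratios rested on almost no input within the interval and give no usable fold. Smad2_peak117 (chr12:35289753-35289812, near llgl2, a cell polarity gene) and Smad2_peak591 had no input signal within their intervals, with 8 and 2 Smad2 tags. Smad2_peak717 had 8 Smad2 tags, and Smad2_peak43 and Smad2_peak44 had 7 each, all over 1 input tag. Within 250 bp of the centre, input heights were 7 tags at Smad2_peak117, 3 at Smad2_peak591, 4 at Smad2_peak717, and 6 at Smad2_peak43 and at Smad2_peak44. Smad2 heights within this distance were 8, 8, 8, 10 and 10 tags. Among distant lone peaks with at least 4 input tags, a limit chosen after these values were seen, the highest ratio was 11.0 (3.67 to 62.7) at Smad2_peak268 (chr17:15401508-15401666), with 25 Smad2 and 5 input tags and no Eomesa tag. Within 250 bp of its centre input reached 11 tags, whereas at the peaks that follow it was no higher than in the interval. Next came Smad2_peak888 on an unplaced sequence at 10.5 (4.14 to 45.6), Smad2_peak369 (chr2:9703662-9703928, near acbd5b and abi1b) at 10.4 (4.38 to 36.4), Smad2_peak103 among U1 spliceosomal RNA genes at 9.51 (4.24 to 29.0) and Smad2_peak328 at 9.26 (2.02 to 83.3). Their counting intervals overlapped widely, so the order among them is not resolved. At the other end, Smad2_peak678 near ptges, Smad2_peak798 near ENOSF1 and Smad2_peak606 near cbx1a had ratios of 1.01, 1.09 and 1.13 from 2, 5 and 3 Smad2 tags over 3 input tags each. The highest input heights were 31 tags at Smad2_peak329, 28 at Smad2_peak668, 27 at Smad2_peak415, 22 at Smad2_peak595 and 19 at Smad2_peak479, and 4 of these peaks are among the 5 tallest for Smad2.

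Some distant lone peaks had Eomesa signal as tall as that of called Eomesa peaks. The median height of the 6378 called Eomesa peaks was 14 tags. This was reached by 11 of the 276 distant lone peaks (3.99%, 2.24 to 6.99), against 34.4% of all Smad2 peaks and 11 of 267 nearer lone peaks (4.12%, 2.32 to 7.23). Smad2_peak595 was tallest with 39 Eomesa tags, above 92.7% of the called Eomesa peaks, although its nearest called Eomesa peak lay 283 kb away. Smad2_peak654 (chr5:3593024-3593360) and Smad2_peak655 (chr5:3595455-3595756), both near hspb1, a small heat shock protein gene, followed with 34 and 36 Eomesa tags. They had 28 and 33 Smad2 tags, 10 and 11 input tags, and Eomesa-to-input ratios of 13.2 (7.03 to 25.7) and 14.2 (7.89 to 30.4). This pair was thus alike in all 3 tracks and was listed with the same 11 letters, and whether both peaks drew on shared tags was not tested. Smad2_peak576 (chr25:36325235-36325665) had 26 Eomesa and 13 Smad2 tags. The others were Smad2_peak329 with 25 Eomesa tags, Smad2_peak203 with 23, Smad2_peak484 with 20, Smad2_peak236 with 18, Smad2_peak298 with 16, and Smad2_peak541 and Smad2_peak690 with 14 each. The Eomesa list holds regions called in both reactions, whether the track holds both is not stated, and the part of this in the missing calls was not tested. Of the peaks with the highest Eomesa-to-input ratios, Smad2_peak760 (chr7:12507853-12508061) had 13 Eomesa tags over 3 input tags, and the remaining 4 had 1 input tag or none. With at least 4 input tags the highest were 17.5 (6.92 to 72.0) at Smad2_peak541, the pair by hspb1, 12.5 (4.86 to 40.0) at Smad2_peak480 and 11.6 (6.30 to 23.2) at Smad2_peak484.

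Peaks whose listed Foxh1 site had the core AATNCACA had higher median values of Smad2. The 34 distant lone peaks with AATNCACA had a median Smad2 height of 19.5 tags (quartiles 13.3 and 29.5), the 42 with another listed site 12.5 tags (11 and 14.8) and the 200 with none 12 tags (10 and 15). Median input heights were 8, 6 and 6 tags and median widths 288.5, 286.5 and 245 bp. The motif set thus had the highest medians of both Smad2 and input, while width differed between peaks with and without a listed site. The median Smad2-to-input ratio was 4.76 (quartiles 2.75 and 5.90), 3.34 (2.87 and 4.73) and 3.47 (2.60 and 4.45), and the quartile ranges of the 3 sets overlapped. The median Eomesa-to-input ratio was 1.55, 1.19 and 0.872. Cores were led by AATACACA at 26 distant lone peaks (of 131 Smad2 peaks in all), with a median Smad2 height of 23 tags. AATCAACA followed with 11 of 42, AATAAACA with 7 of 52, AATCCACT with 6 of 12 and AATCCACA with 5 of 44. Of the 10 tallest distant lone peaks, 7 had AATACACA, which was listed at 131 of the 898 Smad2 peaks of any height. At 30 tags or more, AATNCACA was also listed at 38.1% of nearer lone peaks and 44.8% of shared peaks.

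**Figure D4:**
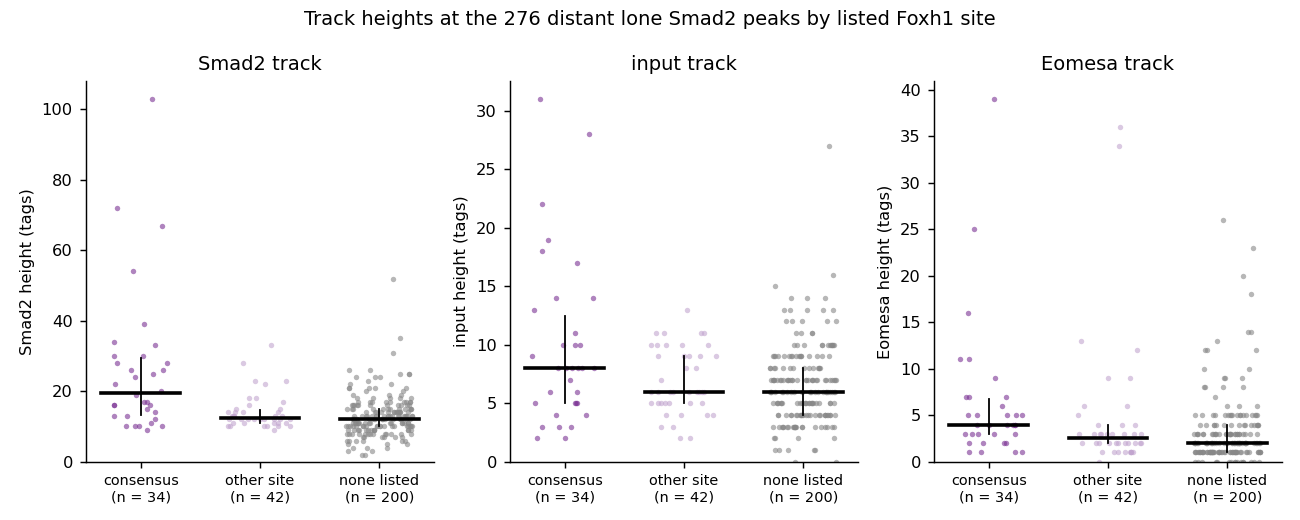
Smad2, input and Eomesa height in tags at each of the 276 distant lone peaks, for peaks with a listed Foxh1 site that fits AATNCACA (n = 34), another listed site (n = 42) or none listed (n = 200), with thick lines at medians and thin lines between quartiles. The label consensus in the plot stands for AATNCACA only. The AATNCACA set had a median of 19.5 Smad2 tags against 12.5 and 12, and held the 4 tallest peaks.

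Since distant lone peaks were lower than the rest, the motif was also counted within steps of Smad2 height. From 0 to 9 tags AATNCACA was listed at 1 of 50 distant lone peaks (2.00%, 0.354 to 10.5), 0 of 30 nearer lone peaks and 0 of 6 shared peaks. Between 10 and 14 tags it was listed at 9 of 130 distant lone peaks (6.92%, 3.68 to 12.6), 12 of 106 nearer lone peaks (11.3%) and 5 of 35 shared peaks (14.3%). Between 15 and 19 tags the shares were 13.2%, 14.1% and 11.0%, and between 20 and 29 tags 26.7%, 32.6% and 32.7%. At 30 tags or more it was listed at 9 of 13 distant lone peaks (69.2%, 42.4 to 87.3), 8 of 21 nearer lone peaks (38.1%, 20.8 to 59.1) and 64 of 143 shared peaks (44.8%, 36.8 to 52.9). Within each step the intervals of the 3 classes met. The share was lowest at distant lone peaks between 10 and 14 and between 20 and 29 tags, and highest there from 0 to 9 tags and at 30 tags or more. Whether their lower heights account for the lower share over all distant lone peaks was not tested. Eomesa signal of at least 2 times input was found at 10 of 48 distant lone peaks from 0 to 9 tags (20.8%, 11.7 to 34.3) and at 28 of 130 between 10 and 14 tags (21.5%, 15.3 to 29.4). It was found at 20 of 53 between 15 and 19 tags (37.7%, 25.9 to 51.2), at 5 of 30 between 20 and 29 tags (16.7%, 7.34 to 33.6) and at 9 of the 13 with 30 or more (69.2%, 42.4 to 87.3). At nearer lone peaks the shares in these steps were 13.8%, 21.0%, 32.8%, 34.8% and 47.6% (28.3 to 67.6), with intervals that met those of the distant ones. At shared peaks, where Eomesa was called, they were 100%, 100%, 100%, 98.0% and 99.3%, and the share over all Smad2 peaks of any height was 55.5%. Low values at distant lone peaks follow from the rule, and nothing is read from these shares.

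The groups of 3 or more distant lone peaks that lay close together were among histone genes. Joined over gaps of at most 10 kb, the 276 peaks formed 254 loci, of which 244 were single peaks, 7 were pairs and 3 were groups of at least 3 with 18 peaks in all (6.52%). All 3 groups had histone genes within 10 kb by the study's annotation. The share in groups was not computed over all Smad2 peaks. Nearer lone peaks also lay close together beside the groups on chromosome 25, such as Smad2_peak577 to Smad2_peak583, so grouping there is not particular to distant lone peaks. A group of 6 peaks on chromosome 25, from 36105764 to 36122027 near HIST4H4, a histone H4 gene, had Smad2 heights of 6 to 24 tags over input of 6 to 15 tags, with 1 to 10 Eomesa tags. A group of 7 on chromosome 25, from 37365028 to 37386416 near HIST1H4H, had 12 to 26 Smad2, 7 to 13 input and 2 to 5 Eomesa tags. A group of 5 on chromosome 7, from 7241297 to 7256314 near HIST1H4L and HIST1H4J, had 8 to 21 Smad2, 3 to 13 input and 0 to 5 Eomesa tags. Median Smad2-to-input ratios of the groups were 2.98, 3.37 and 4.73, and median Eomesa-to-input ratios 0.854, 0.632 and 1.42.

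**Figure D5:**
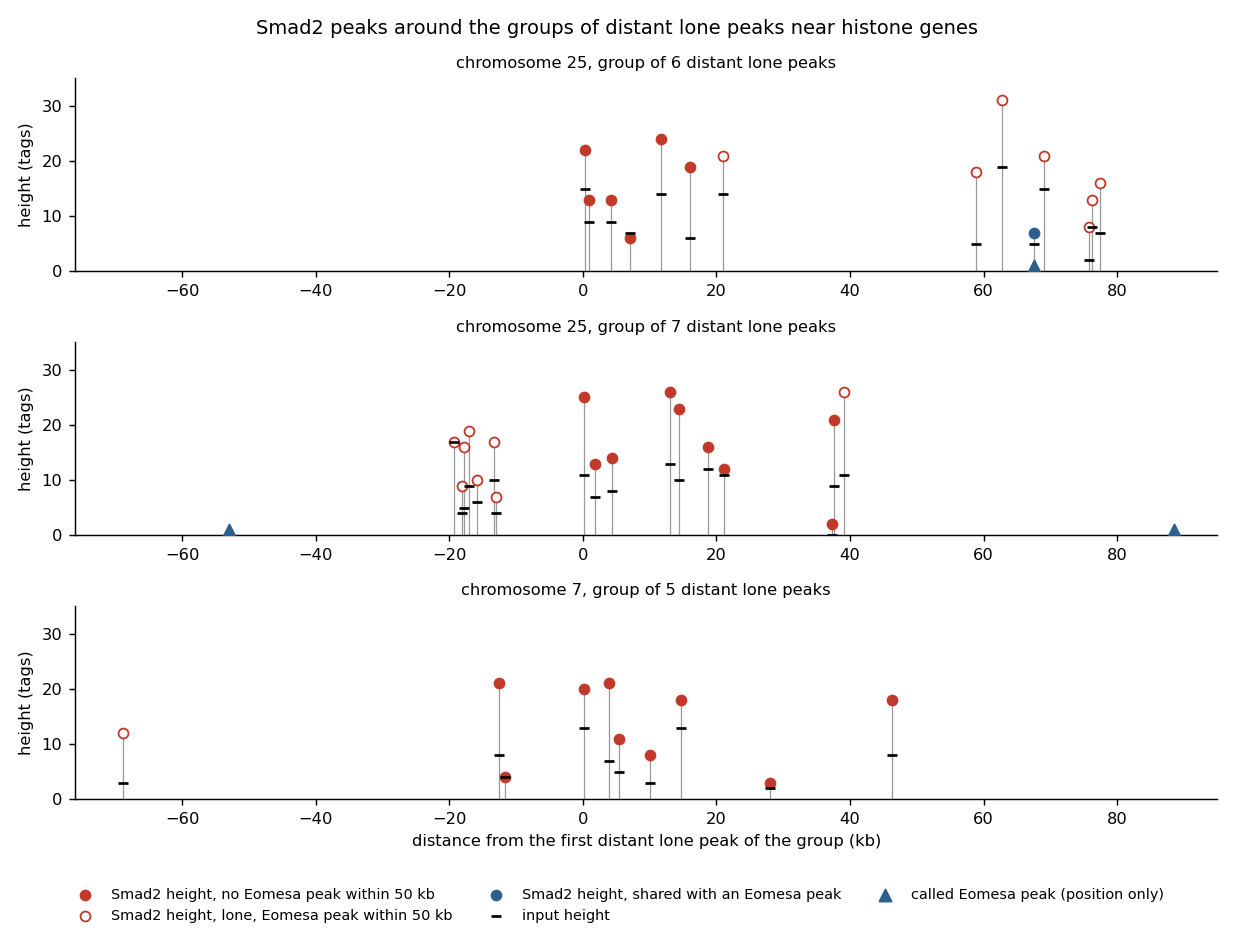
Smad2 height (circles) and input height (bars) in tags of every Smad2 peak around the 3 groups, by distance in kb from the first distant lone peak of the group, with distant lone peaks filled in red, nearer lone peaks open, shared peaks filled in blue and called Eomesa peaks as triangles that mark position only. Open circles continue each group on chromosome 25, and no called Eomesa peak lies within the window on chromosome 7.

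Together 20 distant lone peaks, 13 on chromosome 25 and 7 on chromosome 7, had a histone gene within 10 kb (7.25%, 4.74 to 10.9), against 5.01% of all Smad2 peaks. The other 25 Smad2 peaks with a histone gene were 23 nearer lone peaks, 4.85 to 46.2 kb from Eomesa, and 2 shared peaks. The share was thus 8.61% (5.81 to 12.6) at nearer lone peaks, an interval that met that of the distant ones, and 0.563% at shared peaks. Smad2_peak591, Smad2_peak592, Smad2_peak749 and Smad2_peak750 have gene names that recur at counted peaks, but none was recognised as a histone gene. The share at distant lone peaks thus depends on the naming. The 20 counted distant lone peaks lay 51.2 to 153 kb from Eomesa, so that many were close to the limit. Their median Smad2 height was 17 tags (range 3 to 26), with input of 2 to 15 tags and at most 10 Eomesa tags. Their median Smad2-to-input ratio was 3.14 and their median Eomesa-to-input ratio 0.868, and 4 had a listed Foxh1 site, none of them with AATNCACA. For the first group the nearest called Eomesa peak had a height of 3 tags, and for the second the flanking ones had 11 and 10 tags, as the map of the histone groups places them. Histone genes are repeated with near-identical sequence. Reads were kept with up to 2 places in the genome, so tags of copies may be shared or missing, and values of single peaks in these groups are uncertain. The part of such copies in these peaks was not tested.

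Genes of repeated small RNAs were the next group among the neighbours. A small structured RNA gene lay within 10 kb of 11 distant lone peaks (3.99%, 2.24 to 6.99), against 25 Smad2 peaks in all (2.78%). The share at nearer lone peaks was 3.00% (1.53 to 5.80), close to that of the distant ones. The 11 distant lone peaks had a median Smad2 height of 15 tags (range 8 to 52) and a median Smad2-to-input ratio of 3.04. Genes of 5S ribosomal RNA were named at 5 of them, Smad2_peak70, Smad2_peak120, Smad2_peak136, Smad2_peak308 and Smad2_peak445, with 8 to 17 Smad2 tags. Smad2_peak103 (chr12:2881712-2881924), among U1 genes, had 35 Smad2, 6 input and 8 Eomesa tags. Smad2_peak414 (chr20:49270840-49271102), beside Smad2_peak415 among U5 genes, had 31 Smad2, 10 input and 9 Eomesa tags. The remaining 3 lay near a signal recognition particle RNA gene (Smad2_peak81), SCARNA1 (Smad2_peak235) and SNORD72 together with rpl37 (Smad2_peak428). These genes are repeated too, and the same limit of 2 places holds for their tags. MicroRNA genes were named at 3 distant lone peaks (1.09%, 0.370 to 3.15), against 7 Smad2 peaks in all (0.780%). Smad2_peak1 (chr1:2798389-2798630), by the mir-17 to mir-92 cluster, a group of microRNAs that promote proliferation, had 15 Smad2, 6 input and 3 Eomesa tags. Smad2_peak690 (chr5:43898934-43899216), by mir-144 and mir-451, which act in red blood cells, and by a T-box gene listed as tbx6, had 18 Smad2, 7 input and 14 Eomesa tags. Smad2_peak329 is the third. Ribosomal protein genes were named at 3 distant lone peaks (1.09%, 0.370 to 3.15), against 4 Smad2 peaks in all (0.445%). Smad2 heights were 22 tags at fau (Smad2_peak421), 12 at rpl37 (Smad2_peak428) and 11 at rps14 (Smad2_peak447).

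Genes of the Nodal pathway and of germ layer formation were few around distant lone peaks and more frequent around shared peaks. Of the 355 shared peaks, 10 had a Nodal pathway gene (2.82%, 1.54 to 5.11). A mesoderm or endoderm regulator was named at 23 shared peaks (6.48%, 4.36 to 9.53). A Nodal pathway gene was named at 0 of 276 distant lone peaks, which allows a share of up to 1.09% (3 counts), at 3 of 267 nearer lone peaks (1.12%) and at 13 of 898 Smad2 peaks in all (1.45%). An Fgf pathway gene was named at 0, 7 (2.62%) and 13 (1.45%) of these peaks and a Bmp pathway gene at 0, 1 (0.375%) and 7 (0.780%). A mesoderm or endoderm regulator was named at 2 distant lone peaks (0.725%, 0.199 to 2.60), 9 nearer lone peaks (3.37%, 1.78 to 6.28) and 34 Smad2 peaks in all (3.79%). The 2 distant lone peaks were Smad2_peak690 by tbx6 and Smad2_peak696 (chr5:57678450-57678839) by lhx1b, a LIM homeobox gene, with 13 Smad2, 9 input and 4 Eomesa tags. Of 10 with a Wnt pathway gene, Smad2_peak826 (chr8:28602652-28602902) by the Wnt ligand gene wnt2bb was distant and lone, with 15 Smad2, 6 input and 2 Eomesa tags. Of 11 with a pluripotency or early zygotic gene it was Smad2_peak861 (chr9:31845556-31845742) by the Krüppel-like factor gene klf5b, with 16 Smad2, 8 input and 5 Eomesa tags. Of 15 with an RNA-binding or splicing gene it was Smad2_peak452 (chr22:591369-591713) by the splicing factor gene srsf3b and the cell cycle inhibitor gene cdkn1a, with 17 Smad2, 7 input and 2 Eomesa tags. These 5 peaks had Smad2-to-input ratios between 3.06 and 3.75. The counts of each list are small, the same gene can be named at several peaks, and no test was made on them. A gene start within 10 kb of a shared peak cannot also lie within 10 kb of a peak over 50 kb from Eomesa. Low shares at distant lone peaks thus follow in part from the rule, and nothing is read from them. A gene of any kind was named within 10 kb of 152 distant lone peaks (55.1%, 49.2 to 60.8), against 60.2% of all Smad2 peaks, and 236 of the 276 had none of the listed groups. The names are those of the study for Zv9, of which 376 of 661 were found in the RefSeq table, so that histone genes under other names may be missed.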

How the data were processed

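ChIP-seq for Smad2 and Eomesa, with input, was done on AB embryos at high-sphere stage (6 samples in 3 groups by title). The authors mapped reads to Zv9 with Bowtie, keeping those with up to 2 places, and called peaks with MACS against paired input. Regions called in both reactions form the deposited lists, whose only other number is the width in bp, with no score or p-value. The deposited coverage signal is the pileup of shifted tags every 5 bp, not scaled to depth. Which reactions a track holds is not stated.

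Intervals were read with both ends included, since 2 Smad2 and 12 Eomesa entries start and end at the same base. Coordinates may thus be off by 1 base, and widths are end minus start. Tags were estimated as summed signal divided by tag length, measured on isolated runs. Depth is given with the results. Ratios divide peak means, scaled to the genome-wide mean (flanks in an alternative), by input. The 2 distant lone peaks without input signal within their interval have no ratio. Medians have exact binomial 95% intervals, shares Wilson intervals and ratios of single peaks Clopper-Pearson intervals on estimated tags. The limits given for shares of 0 are 3 counts over the number of peaks, which is tighter than the upper end of a Wilson interval. Duplicated fragments cannot be told apart, so these cover counting error only.

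No test was run, because the rule used the calls made on these tracks and each group has 1 track. Members, gene lists and summaries were chosen with earlier results of these data known. Peaks were named by rank (Smad2 height, ratios, input, distance to Eomesa), by groups of at least 3 and by gene list. No peak retested by ChIP-qPCR belonged to the set. Marks for responsive genes in the study's peak list were not used. Motifs could not be searched in the peaks, as no Zv9 genome was used here. The computations were tested on simulated data. Python 3.11.15, numpy 2.4.6, pandas 2.3.3, scipy 1.17.1, numba 0.67.0 and matplotlib 3.10.9 were used.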

Additional observations from a re-analysis of the deposited data

How the results depend on the processing

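Over 8 results, 61 alternatives were computed. Of these, 52 stayed within the interval of the value or, for counts, within 1.5 times, and 9 moved further. The median Eomesa-to-input ratio, whose interval includes 1, was 0.999 both on chromosomes 1 to 25 alone and with 1 peak per locus. A limit of 100 kb in place of 50 kb left 179 distant lone peaks by construction. Scaling each track to its flanks gave a median Smad2-to-input ratio of 3.21, a share with Smad2 at least 3 times input of 55.8% and a share with input at least 2 times its flanks of 48.9%. Taking the highest value in place of the mean gave a median Smad2-to-input ratio of 3.02, a median Eomesa-to-input ratio of 1.96, and shares of 48.5% with Eomesa at least 2 times input, 56.2% with Smad2 at least 3 times input and 84.8% with input at least 2 times its mean. The cause of these shifts was not tested. A limit of 20 kb gave 372 peaks, counting only Eomesa peaks of at least the median height gave 401, and leaving out peaks near histone genes gave ratios of 3.50 for Smad2 and 1.02 for Eomesa. The last, and heights taken within 250 bp of the centre, were chosen after seeing the data. Depth limits low peaks, since 42 of the 276 had under 4 input tags, a share not computed over all Smad2 peaks. No paired analysis was possible because each factor has 1 list made of both reactions and 1 track, neither with a replicate number, so that no replicate could be taken out.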
